A study of Sus scrofa with 14 samples.

Results

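Pig pre-gastrulation epiblast stem cells (pgEpiSCs) at high passage (pgEpiSCs-high, passage 200, 3 libraries) were compared with such cells at low passage (pgEpiSCs-Low, passage 30, 3 libraries). These 6 of the 14 RNA-seq libraries of the series were chosen by their labels, and the genes by their level: 13104 of the 15031 genes in the deposited table had more than 0.5 TPM (transcripts per 1000000) in at least 2 libraries of either passage. The other 8 libraries come from muscle cells made in culture and entered only 1 alternative, a model of all 14 libraries. Both groups are labelled wild type, untreated and day 0. Both were grown on layers of mouse embryonic fibroblasts under the same oxygen level in 3i/LAF medium, which contains the GSK3 inhibitor CHIR99021, the tankyrase inhibitor IWR-1-endo, the SRC-family inhibitor WH-4-023, LIF, activin A and FGF2. The cells derive from the embryo of a NongDa Xiang pig, and no source used here gives the number of lines or clones. The study calls its RNA-seq replicates biological, and whether those of a passage stem from separate cultures is not stated in the sources used here, so each p-value measures only the spread between these libraries, which may be technical, and passage cannot be told apart from anything else that differed between the 2 sets of cultures. The question was which transcripts differ after long culture.

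The epiblast is the tissue of the early embryo from which the germ layers arise, and stem cells derived from it can be kept pluripotent in culture. Activin and NODAL signals, FGF signals and a balance of WNT activity are known to hold them in that state, together with transcription factors such as NANOG, SOX2 and OTX2. Cultures of pluripotent cells are divided at each passage, and cells that survive or divide better than their neighbours are known to take over a culture with time.

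TPM scales each library to the same total, so the read depth of these libraries is unknown. From 12691 to 12769 genes were above 0.5 TPM in a pgEpiSCs-high library and from 12706 to 12742 in a pgEpiSCs-Low library. On log2(TPM + 1) the 3 pairs of libraries within pgEpiSCs-high had a Pearson correlation of 0.988 to 0.991 and those within pgEpiSCs-Low of 0.990 to 0.991, and the 9 pairs between the passages lay at 0.972 to 0.980. The epiblast markers in the table (6 of 8) summed to 1873 to 2093 TPM in pgEpiSCs-high and 1852 to 1920 TPM in pgEpiSCs-Low. Most of each sum was *LIN28A*, so it says little about the other markers. Of the 6, *NANOG*, *SOX2* and *LIN28A* were not called, *CDH1* and *EPCAM* were higher and *OTX2* was lower. The 12 fibroblast or feeder markers summed to 111 to 135 TPM in pgEpiSCs-high and 116 to 142 TPM in pgEpiSCs-Low, *LUM* and *POSTN* staying below 1 TPM in every library. Mouse reads that map to the pig genome cannot be told from pig reads in this table. The markers of muscle (5 of 6 in the table) summed to 4.63 to 6.76 TPM in pgEpiSCs-high and 18.5 to 19.8 TPM in pgEpiSCs-Low, with *PAX7*, *MYOD1* and *MYOG* below 1 TPM everywhere. Those of immune and endothelial cells (4 of 5) summed to at most 1.76 TPM in pgEpiSCs-high and 1.24 TPM in pgEpiSCs-Low, with *CDH5* at 0. The part of such cells in the results was not tested.

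Changes between the passages went with the base composition of the transcripts. Over 11132 genes with a known exon sequence the log2 fold change had a Spearman correlation of -0.30 with GC content and of 0.0051 with exon length, a description across genes, which are not independent. Of the eighth of genes poorest in GC, 9.05% were called higher and 5.53% lower in pgEpiSCs-high, and of the eighth richest in GC, 3.09% were higher and 24.1% lower. The libraries differed in this respect within a passage too. The correlation of a gene's deviation from its mean with GC content was 0.040, -0.14 and -0.45 in pgEpiSCs-high 1, 2 and 3, and 0.39, 0.091 and 0.17 in pgEpiSCs-Low 1, 2 and 3. The part of GC content in each result was not tested, but every count was repeated after a correction for GC content.

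Most genes differed little. With limma on log2(TPM + 1), calls were made where the adjusted p lay under 0.05 (Benjamini-Hochberg over 13104 genes). This took in 2566 genes (19.6%), 921 of them higher (7.03%) and 1645 lower (12.6%) in pgEpiSCs-high. Over all genes the log2 fold change had a median of -0.057, and 1204 of the called genes (46.9%) moved by less than 0.5. Only 97 called genes rose and 198 fell by more than 1 on the log2 scale, and 7 rose and 24 fell by more than 2. The surplus of falls was tied to the scaling: lower genes were 64.1% of the called genes on the deposited TPM, 48.3% after median-of-ratios scaling, 46.3% after quantile normalization and 47.0% after the GC correction. The libraries of the passages did not overlap in 5204 genes (39.7%). In a called gene such a gap largely goes with the call, so where noted below it is no separate result. Each fold change below, also a lone number in brackets after a gene, is a log2 fold change on the log2(TPM + 1) scale, pgEpiSCs-high minus pgEpiSCs-Low, which makes changes of genes around 1 TPM and less look smaller than they are.

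**Figure D1:**
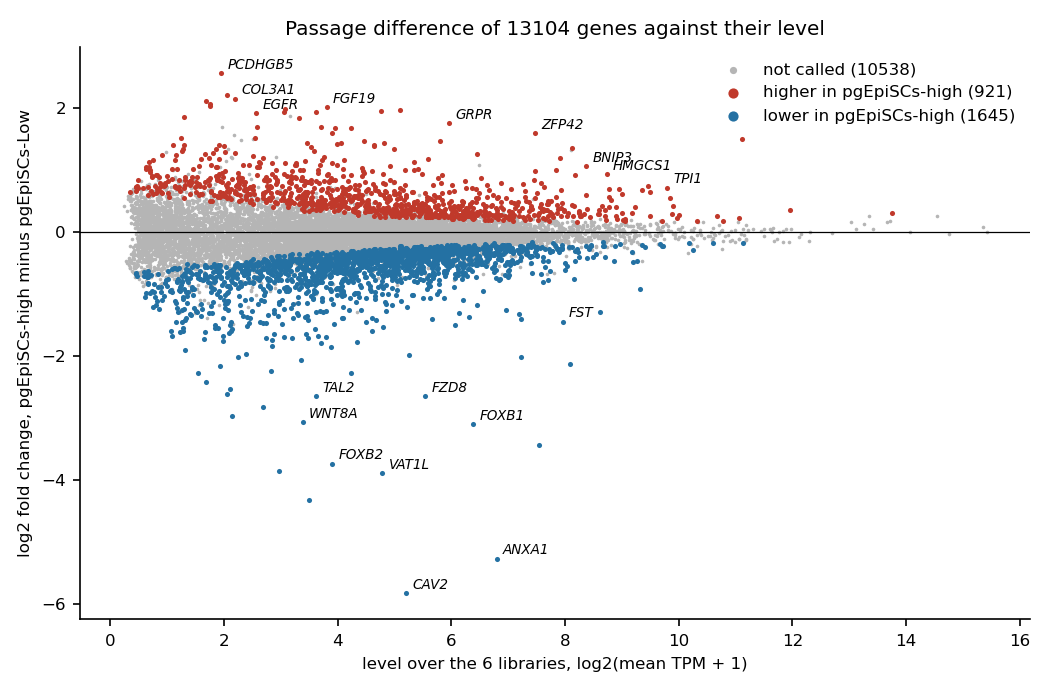
Log2 fold change (pgEpiSCs-high minus pgEpiSCs-Low, vertical axis) of the 13104 tested genes against their mean level over the 6 libraries as log2(TPM + 1), 1 point per gene. The 921 genes called higher in pgEpiSCs-high are red, the 1645 called lower are blue and the others grey; the tail of falls is longer than that of rises, with *CAV2* and *ANXA1* at its end.

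The genes that separated the passages furthest, *CAV2* and *ANXA1*, were far lower at high passage. *CAV2*, which encodes caveolin 2, a scaffold protein of membrane pits called caveolae (chromosome 18, 29699012-29707277, Sscrofa11.1), had 0, 0.236 and 0.674 TPM in pgEpiSCs-high, against 64.8, 75.2 and 74.0 TPM in pgEpiSCs-Low (log2 fold change -5.82, standard error 0.18, adjusted p = 4.04e-07). *ANXA1*, the gene of annexin A1, a protein that binds membrane lipids in the presence of calcium, had 4.28, 4.40 and 5.19 TPM in pgEpiSCs-high, against 193, 216 and 239 TPM in pgEpiSCs-Low (log2 fold change -5.27, standard error 0.10, adjusted p = 2e-08). The passages lay far apart in both genes, which were picked among those whose libraries did not overlap. The nearest tested genes on either side moved by less than 0.5 on the log2 scale. *CAV1*, the partner of *CAV2* in caveolae and its nearest tested neighbour, had 521, 501 and 512 TPM in pgEpiSCs-high, against 569.7, 673 and 693 TPM in pgEpiSCs-Low (-0.33), and *TES*, on the other side of *CAV2*, was higher (0.42), as was *TFEC*, the next gene after it (0.80). On either side of *ANXA1* the nearest tested genes were *ZFAND5*, an ubiquitin-binding protein gene (-0.23), and *TRPM6*, a magnesium channel gene (0.38, not called). Beyond *ZFAND5* the next tested gene, *ABHD17B*, was lower (log2 fold change -1.26, standard error 0.069, adjusted p = 1.16e-05). The call of *CAV1* was lost with all 14 libraries in 1 model, without the intensity trend and with pgEpiSCs-high 2 or pgEpiSCs-Low 2 or 3 left out (adjusted p 0.052 to 0.0616). That of *ZFAND5* was lost after median-of-ratios scaling, without the intensity trend and with pgEpiSCs-high 2 or 3 or pgEpiSCs-Low 1 or 2 left out (adjusted p 0.0557 to 0.0828).

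Some genes were listed at 0 in all 3 pgEpiSCs-high libraries. *GSTM3*, a glutathione transferase gene that joins glutathione to reactive compounds, had 0 TPM in all 3 pgEpiSCs-high libraries, against 13.8, 11.5 and 15.6 TPM in pgEpiSCs-Low (adjusted p = 1.78e-06). *CYP2E1*, the gene of a cytochrome P450 that oxidises ethanol and other small molecules, had 0 TPM in all 3 pgEpiSCs-high libraries, against 6.16, 6.70 and 7.58 TPM in pgEpiSCs-Low (adjusted p = 9.07e-06). *EXO5*, a DNA exonuclease gene of the repair of cross-linked DNA in human cells, had 0 TPM in all 3 pgEpiSCs-high libraries, against 3.40, 4.00 and 4.14 TPM in pgEpiSCs-Low (adjusted p = 5.04e-05). With no value above 0 at high passage no fold is given for them, and they are described only as listed at 0. *SYCE1*, a component of the meiotic synaptonemal complex and the tested gene next to *CYP2E1* near the end of chromosome 14, named after its values were seen, had 0 TPM in all 3 pgEpiSCs-high libraries, against 3.09, 1.32 and 4.51 TPM in pgEpiSCs-Low (adjusted p = 0.00269). The next tested gene inward, *MTG1*, a mitochondrial GTPase gene, stood at 54.8 ± 6.41 TPM in pgEpiSCs-high and 54.6 ± 1.88 TPM in pgEpiSCs-Low and was not called (log2 fold change -0.0015, standard error 0.090, adjusted p = 0.992). In the other direction, among genes listed at 0 in all 3 pgEpiSCs-Low libraries, the called ones with a symbol were *BARX1*, a homeobox gene (0.735, 0.568 and 2.03 TPM in pgEpiSCs-high, against 0 TPM in all 3 pgEpiSCs-Low libraries), the profilin gene *PFN4* and the histone gene *HIST1H3E*, chosen after their values were seen. The call of *BARX1* was lost with pgEpiSCs-high 3 or pgEpiSCs-Low 1, 2 or 3 left out (adjusted p 0.0642 to 0.0749). That of *PFN4* was lost with pgEpiSCs-high 1 or 3 or pgEpiSCs-Low 1, 2 or 3 left out (adjusted p 0.0531 to 0.0671). That of *HIST1H3E* was lost after quantile normalization, without the intensity trend and with pgEpiSCs-high 2 or 3 or pgEpiSCs-Low 1, 2 or 3 left out (adjusted p 0.0524 to 0.112).

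Among the 20 largest falls were genes of early patterning, named first here after their values were seen. *FOXB1*, a forkhead transcription factor gene of the developing brain, had 23.9, 13.1 and 13.9 TPM in pgEpiSCs-high, against 141, 149 and 155 TPM in pgEpiSCs-Low (log2 fold change -3.10, standard error 0.19, adjusted p = 1.66e-05). Its relative *FOXB2* had 1.29, 1.32 and 0.71 TPM in pgEpiSCs-high, against 24.2, 27.97 and 28.5 TPM in pgEpiSCs-Low (-3.74). *LHX5*, a LIM-homeobox gene of the forebrain, had 5.79, 6.03 and 4.69 TPM in pgEpiSCs-high, against 33.5, 28.1 and 29.3 TPM in pgEpiSCs-Low (-2.27). *TAL2*, a basic helix-loop-helix gene of the midbrain, had 2.05, 2.46 and 2.64 TPM in pgEpiSCs-high, against 20.8, 17.7 and 21.8 TPM in pgEpiSCs-Low (-2.64). The 20 largest falls were picked among called genes whose libraries did not overlap, so that separation was fixed by the choice. *VAT1L*, a gene related to a synaptic vesicle membrane protein, had 2.71, 2.42 and 2.28 TPM in pgEpiSCs-high, against 51.9, 45.8 and 54.4 TPM in pgEpiSCs-Low (-3.90), and *NUDT7*, its neighbour and the gene of a peroxisomal hydrolase, also fell (-1.69). *CEMIP2*, a cell surface hyaluronidase gene, had 59.7, 58.4 and 57.6 TPM in pgEpiSCs-high, against 211, 247 and 262 TPM in pgEpiSCs-Low (-2.01). The others of the 20 were *WNT8A*, *FZD8*, *SPINT2* and *ROBO3*, described below, the zinc finger gene *ZNF613* (-2.82), the calcium channel gene *CACNA1A* (-2.53), the glycoprotein gene *GP2* (-2.24), *TMEM117* (-2.02), and *CCDC92* (-2.17), whose overlapping neighbour *ZNF664* (-1.40) fell with it, so that reads of the 2 may not be separable.

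The 20 largest rises were smaller and more mixed. *ZFP42* (REX1), a zinc finger gene used as a marker of pluripotent cells, had 266, 273 and 253 TPM in pgEpiSCs-high, against 75.2, 86.8 and 99.0 TPM in pgEpiSCs-Low (log2 fold change 1.60, standard error 0.092, adjusted p = 1.43e-05). *GRPR*, the receptor gene of gastrin-releasing peptide, had 93.9, 100.3 and 92.2 TPM in pgEpiSCs-high, against 25.1, 27.8 and 30.1 TPM in pgEpiSCs-Low (1.75). *SPOCK3*, a proteoglycan gene, had 49.1, 56.9 and 54.1 TPM in pgEpiSCs-high, against 12.1, 13.4 and 13.3 TPM in pgEpiSCs-Low (1.96). *CCND2*, the gene of cyclin D2, which drives entry into the cell cycle, had 22.3, 21.6 and 20.4 TPM in pgEpiSCs-high, against 5.15, 6.67 and 7.65 TPM in pgEpiSCs-Low (1.60). The 20 largest rises, too, were picked among called genes without overlap between the passages, so the separation in these 4 genes is no separate result. *GDF3*, *FGF19*, *FGF17*, *EGFR*, *ADM* and *ESRP1* are described with their pathways. Also among them were the chromatin factor gene *ATF7IP2* (2.11), the GTPase gene *GIMAP8* (2.02), the glutathione peroxidase gene *GPX6* (1.94), the phosphodiesterase gene *PDE3B* (1.69), the neurokinin B gene *TAC3* (1.69), the GABA receptor gene *GABRA2* (1.68), the histamine receptor gene *HRH3* (1.51), *PCDHGB5* and *COL3A1*. *PCDHGB5* (2.56) belongs to a cluster of protocadherin genes that share exons, so its value is uncertain. *COL3A1*, a fibrillar collagen gene typical of fibroblasts, was uneven, with 3.20, 10.3 and 5.78 TPM in pgEpiSCs-high, against 2.05, 0.201 and 0 TPM in pgEpiSCs-Low (2.15). The other fibroblast markers did not move with it as a group: of 11 tested, *COL3A1* and *COL1A1* were higher and 2 lower, *TAGLN* (-0.94) and *ACTA2* (-0.90), and *DCN* and *PDGFRA* were not called. The call of *COL1A1* was lost without the filter, without the mitochondrial genes, with the replicate block, without the intensity trend and with pgEpiSCs-high 2 or 3 or pgEpiSCs-Low 2 or 3 left out (adjusted p 0.0508 to 0.137). That of *ACTA2* was lost with pgEpiSCs-Low 1 or 2 left out (adjusted p 0.0546 to 0.0637).

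**Figure D2:**
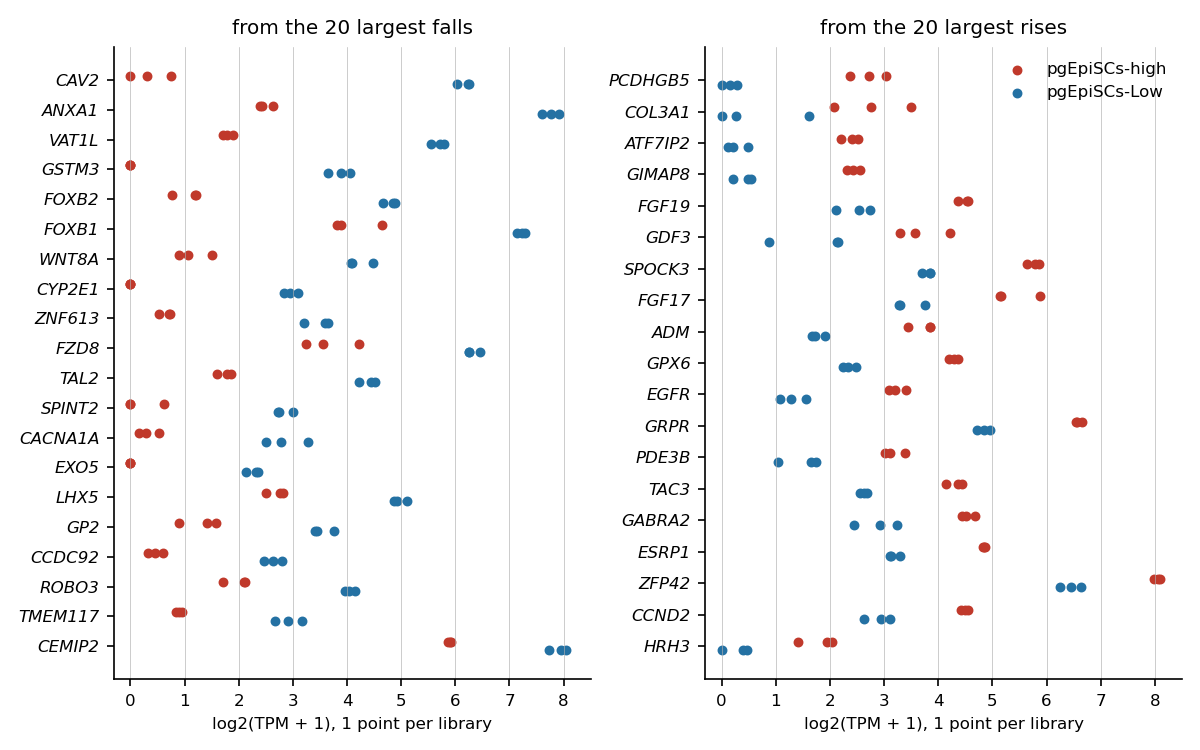
Level of genes named in the text from the 20 largest falls (left) and 20 largest rises (right) by log2 fold change, among called genes with a symbol whose libraries do not overlap, as log2(TPM + 1), 1 point per library (pgEpiSCs-high red, pgEpiSCs-Low blue). *CAV2*, *GSTM3*, *CYP2E1* and *EXO5* sit at or near 0 in pgEpiSCs-high, while most rises start from a low level in pgEpiSCs-Low, with *ZFP42* and *GRPR* the highest expressed.

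On the deposited TPM no tested gene of a list of core pluripotency genes passed the test. Genes of the naive and primed states moved in both directions. The core list of 13 did not include *POU5F1* (OCT4), and *DPPA2*, *SALL4*, *TDGF1* and *UTF1* had no values here. Of 9 tested core genes 0 were called higher and 0 lower (against 7.03% and 12.6% of all genes), with a median log2 fold change of 0.085 (all genes -0.057), and 4 had an unadjusted p below 0.05 (limma). *NANOG* had 227, 252 and 254 TPM in pgEpiSCs-high, against 214, 214 and 226 TPM in pgEpiSCs-Low (log2 fold change 0.16, standard error 0.060, adjusted p = 0.0886). *SOX2* had 83.8, 78.3 and 61.2 TPM in pgEpiSCs-high, against 92.0, 78.0 and 82.0 TPM in pgEpiSCs-Low (-0.18, not called). *LIN28A* had 1514, 1339 and 1264 TPM in pgEpiSCs-high, against 1198, 1223 and 1236 TPM in pgEpiSCs-Low (0.17, not called). The libraries of the passages overlapped in *SOX2* and lay close together without overlap in *NANOG* and *LIN28A*. Both were called higher after median-of-ratios scaling (adjusted p = 0.0289 for *NANOG* and 0.0371 for *LIN28A*), and *LIN28A* also after the GC correction (adjusted p = 0.00173). A p that misses the threshold does not show that the levels were equal. Of 4 tested naive-state genes *ZFP42* was higher. *ESRRB*, a nuclear receptor gene, was lower (2.54, 3.44 and 3.69 TPM in pgEpiSCs-high, against 8.95, 10.3 and 13.6 TPM in pgEpiSCs-Low, log2 fold change -1.49, standard error 0.17, adjusted p = 0.000664). So was *KLF5*, a zinc finger factor gene (3.76, 5.81 and 5.67 TPM in pgEpiSCs-high, against 13.0, 15.1 and 15.5 TPM in pgEpiSCs-Low, log2 fold change -1.37). Of 11 tested primed-state genes 2 were higher and 4 lower. *OTX2*, the homeobox factor gene of primed cells, had 205, 205 and 225 TPM in pgEpiSCs-high, against 303, 305 and 321 TPM in pgEpiSCs-Low (log2 fold change -0.55, standard error 0.057, adjusted p = 0.000381). The POU factor gene *POU3F1* (-0.97) and *NODAL* (-1.30) also fell. The call of *POU3F1* was lost with pgEpiSCs-high 2 or pgEpiSCs-Low 1 or 2 left out (adjusted p 0.051 to 0.0585).

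Germ layer markers also went both ways, and the neural and surface ectoderm markers fell or did not pass. Over all genes 7.03% were higher and 12.6% lower. Of 9 tested ectoderm markers 0 were higher and 5 lower, with a median log2 fold change of -0.47. Among them *MAP2*, a microtubule protein gene of neurons, had 2.84, 2.49 and 3.50 TPM in pgEpiSCs-high, against 10.3, 11.8 and 13.2 TPM in pgEpiSCs-Low (log2 fold change -1.70, standard error 0.15, adjusted p = 0.000118). The proneural factor gene *NEUROG2* (-1.28), the homeobox gene *HESX1* (-0.65) and the intermediate filament gene *NES* (-0.47) were lower too. Of 5 tested endoderm markers 2 were higher, the homeobox gene *HHEX* (0.94) and the forkhead gene *FOXA1* (0.85), and 1 was lower. *FOXA2*, a forkhead gene of the endoderm and the node, had 17.0, 14.6 and 11.99 TPM in pgEpiSCs-high, against 58.3, 58.7 and 62.2 TPM in pgEpiSCs-Low (log2 fold change -1.98, standard error 0.12, adjusted p = 1.54e-05). Of 6 tested markers of mesoderm and the primitive streak the T-box gene *EOMES* was higher (17.9, 14.6 and 12.8 TPM in pgEpiSCs-high, against 5.63, 10.9 and 9.13 TPM in pgEpiSCs-Low, log2 fold change 0.78). The homeobox gene *GSC* was lower (6.74, 1.89 and 4.96 TPM in pgEpiSCs-high, against 15.7, 14.3 and 17.6 TPM in pgEpiSCs-Low, log2 fold change -1.72, standard error 0.31, adjusted p = 0.0055). *PAX6*, a neural marker, lay below the filter in both passages. The call of *NEUROG2* was lost with pgEpiSCs-Low 1 or 2 left out (adjusted p 0.0572 to 0.066). That of *EOMES* was lost without the intensity trend and with pgEpiSCs-high 1 or 2 or pgEpiSCs-Low 1 or 3 left out (adjusted p 0.0651 to 0.079).

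Genes of the NODAL and BMP pathways, which signal through SMAD proteins, changed in both directions, and the surplus of falls was near that of all genes. Of 44 tested members, 5 were higher and 10 lower in pgEpiSCs-high, with a median log2 fold change of -0.14, and after the GC correction 7 were higher and 10 lower of 43. Lower genes were 64.1% of all called genes. Among the ligands *NODAL* itself had 3.49, 3.59 and 2.73 TPM in pgEpiSCs-high, against 9.20, 10.1 and 9.17 TPM in pgEpiSCs-Low (log2 fold change -1.30, standard error 0.13, adjusted p = 0.000309). *GDF3*, a ligand of the same family, went the other way with 17.5, 8.81 and 10.9 TPM in pgEpiSCs-high, against 0.833, 3.36 and 3.42 TPM in pgEpiSCs-Low (log2 fold change 1.98, standard error 0.35, adjusted p = 0.00551). The libraries of the passages were apart in both genes, as in 39.7% of all genes. *ACVR1*, a type I receptor gene, had 21.2, 20.5 and 22.5 TPM in pgEpiSCs-high, against 50.0, 50.3 and 52.8 TPM in pgEpiSCs-Low (-1.21). *SMAD3*, the gene of a transducer of NODAL and activin signals, had 25.9, 23.2 and 26.6 TPM in pgEpiSCs-high, against 49.1, 54.8 and 51.9 TPM in pgEpiSCs-Low (-1.02), while the partner genes *SMAD2* (-0.036) and *SMAD4* (-0.045) were not called. Among the antagonists *FST*, the gene of follistatin, which binds activin, had 140.5, 132 and 126 TPM in pgEpiSCs-high, against 366, 358 and 367 TPM in pgEpiSCs-Low (log2 fold change -1.45, standard error 0.056, adjusted p = 1.68e-06). By contrast *CHRD*, which encodes the BMP inhibitor chordin, was higher (0.68). *LEFTY2*, which blocks NODAL and was among the most abundant of these transcripts, had 3669, 3451 and 3147 TPM in pgEpiSCs-high, against 4010.0, 3771 and 3713 TPM in pgEpiSCs-Low and was not called (-0.16). The ID genes, targets of BMP signals, split. *ID3* had 293, 222 and 177 TPM in pgEpiSCs-high, against 579, 556 and 527 TPM in pgEpiSCs-Low (log2 fold change -1.29, standard error 0.15, adjusted p = 0.000597). With it fell *ID4* (-1.42). *ID1* had 32.3, 28.6 and 23.7 TPM in pgEpiSCs-high, against 19.5, 17.6 and 16.4 TPM in pgEpiSCs-Low (0.62). The NODAL target gene *PMEPA1* (-0.66) was lower, and *TGFB1* (0.50) and the co-receptor gene *TGFBR3* (0.62) higher. The call of *CHRD* was lost with pgEpiSCs-Low 1 or 2 left out (adjusted p 0.063 to 0.0716). That of *TGFB1* was lost with pgEpiSCs-high 1 or 2 or pgEpiSCs-Low 2 or 3 left out (adjusted p 0.0659 to 0.084). That of *TGFBR3* was lost with pgEpiSCs-high 1 or 3 or pgEpiSCs-Low 3 left out (adjusted p 0.0543 to 0.069).

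WNT genes changed in both directions. Of 53 tested members, 6 were higher and 13 lower in pgEpiSCs-high (all genes 7.03% and 12.6%), with a median log2 fold change of -0.16. Called in either direction (all genes 19.6%) were 4 of 11 ligands, 6 of 17 receptors, 4 of 10 transducers and 3 of 6 targets. *WNT8A*, a ligand gene of the primitive streak, had 1.08, 0.854 and 1.83 TPM in pgEpiSCs-high, against 21.3, 15.7 and 16.0 TPM in pgEpiSCs-Low (log2 fold change -3.06, standard error 0.19, adjusted p = 2.18e-05). In contrast *WNT3*, another streak ligand, was higher with 10.8, 10.9 and 9.66 TPM in pgEpiSCs-high, against 4.86, 4.96 and 7.34 TPM in pgEpiSCs-Low (0.79). Of the frizzled receptor genes *FZD8* had 17.8, 10.7 and 8.43 TPM in pgEpiSCs-high, against 86.5, 74.9 and 75.04 TPM in pgEpiSCs-Low (log2 fold change -2.64, standard error 0.21, adjusted p = 8.38e-05). *FZD10* had 38.7, 32.8 and 34.0 TPM in pgEpiSCs-high, against 13.5, 12.8 and 12 TPM in pgEpiSCs-Low (log2 fold change 1.39, standard error 0.094, adjusted p = 3.75e-05), so that the more abundant of the pair, per transcript length, was *FZD10* in pgEpiSCs-high and *FZD8* in pgEpiSCs-Low. *FZD7*, with 63.7, 59.0 and 65.5 TPM in pgEpiSCs-high, against 95.0, 92.6 and 97.7 TPM in pgEpiSCs-Low, was also lower (-0.59), and the other 7 tested frizzled genes were not called. *LGR5*, a receptor of R-spondins and a target of WNT signals, was higher at a low level (2.06, 1.64 and 2.33 TPM in pgEpiSCs-high, against 0.2, 0.435 and 0.885 TPM in pgEpiSCs-Low, log2 fold change 1.02), and so were *SFRP2*, a secreted antagonist (0.52), and *MYC* (0.54). The antagonist gene *FRZB* (-0.89) and the transducer genes *DVL2* (-0.49) and *DVL1* (-0.66) were lower. *AXIN2* (-0.22) and *NKD1* (-0.42), common targets of the pathway, were not called. The call of *DVL1* was lost without the filter, after median-of-ratios scaling, after quantile normalization, without the mitochondrial genes, without the 100 most abundant genes, without the intensity trend and with pgEpiSCs-high 2 or 3 or pgEpiSCs-Low 1, 2 or 3 left out (adjusted p 0.0524 to 0.146).

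The FGF and EGF receptor genes moved in both directions, with no surplus that held under every scaling. Of 39 tested members, 9 were higher and 9 lower in pgEpiSCs-high, with a median log2 fold change of -0.089, against 9 higher and 7 lower after median-of-ratios scaling and 11 higher and 7 lower after the GC correction. The rises included ligands. *FGF19* had 22.1, 22.5 and 19.6 TPM in pgEpiSCs-high, against 3.32, 5.69 and 4.80 TPM in pgEpiSCs-Low (log2 fold change 2.02, standard error 0.16, adjusted p = 8.34e-05). *FGF17*, a ligand of the FGF8 subfamily, had 57.8, 34.1 and 34.7 TPM in pgEpiSCs-high, against 12.6, 8.86 and 8.65 TPM in pgEpiSCs-Low (log2 fold change 1.95, standard error 0.21, adjusted p = 0.000425). *FGF8* itself was higher as well (12.6, 10.7 and 6.88 TPM in pgEpiSCs-high, against 6.68, 5.56 and 5.66 TPM in pgEpiSCs-Low, log2 fold change 0.64). *FGF2*, the ligand that the medium supplies, had 12.8, 11.8 and 11.2 TPM in pgEpiSCs-high, against 7.87, 9.42 and 12.1 TPM in pgEpiSCs-Low and was not called. Among the receptors *EGFR* had 7.50, 8.14 and 9.53 TPM in pgEpiSCs-high, against 1.11, 1.42 and 1.94 TPM in pgEpiSCs-Low (log2 fold change 1.92, standard error 0.17, adjusted p = 0.000124), whereas *FGFR3* (-0.85) and *FGFR2* (-0.74) were lower and *ERBB2* (-0.12) and *ERBB3* (-0.089) were not called. The phosphatase genes that switch ERK signals off were unlike one another. *DUSP4* had 87.0, 83.7 and 77.5 TPM in pgEpiSCs-high, against 202, 207 and 216 TPM in pgEpiSCs-Low (log2 fold change -1.32, standard error 0.062, adjusted p = 4.01e-06). *DUSP6* had 214, 214 and 204 TPM in pgEpiSCs-high, against 133, 142 and 156 TPM in pgEpiSCs-Low (0.55) and *DUSP5* (0.61) was higher. The call of *FGF8* was lost without the filter, without the intensity trend and with pgEpiSCs-high 1 or 2 or pgEpiSCs-Low 1, 2 or 3 left out (adjusted p 0.0723 to 0.144). Of 18 tested genes of LIF and insulin-like growth factor signalling 2 were higher, the binding protein genes *IGFBP5* (0.75) and *IGFBP4* (0.63), and 4 lower, among them *IGF2R* (-0.38), and after the GC correction 4 were higher and 4 lower. The LIF receptor gene *LIFR* (0.41) and *STAT3* (0.068) were not called. The call of *IGF2R* was lost with pgEpiSCs-Low 3 left out (adjusted p = 0.0542).

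Most targets of the low-oxygen response were higher in pgEpiSCs-high. Cells that lack oxygen stabilise hypoxia-inducible factors, which switch on genes of glycolysis, mitochondrial clearance and blood supply. Of 17 tested members, 12 were higher and 1 lower in pgEpiSCs-high, with a median log2 fold change of 0.59, against 7.03% and 12.6% of all genes. *ADM*, the gene of the vessel-widening peptide adrenomedullin, had 13.5, 13.3 and 9.82 TPM in pgEpiSCs-high, against 2.31, 2.76 and 2.19 TPM in pgEpiSCs-Low (log2 fold change 1.94, standard error 0.15, adjusted p = 8.17e-05). *BNIP3*, whose protein marks mitochondria for removal, had 455, 503 and 387 TPM in pgEpiSCs-high, against 188, 231 and 224 TPM in pgEpiSCs-Low (log2 fold change 1.06, standard error 0.11, adjusted p = 0.000275). *ERO1A*, an oxidase gene of protein folding, had 223, 239.9 and 240.2 TPM in pgEpiSCs-high, against 102, 134 and 121 TPM in pgEpiSCs-Low (log2 fold change 0.98, standard error 0.091, adjusted p = 0.000179). No library of one passage reached the range of the other in these 3 genes, as in 39.7% of all genes. *CA12*, a carbonic anhydrase gene (0.95), *STC2*, a secreted glycoprotein gene (0.93), *PDK1*, a kinase gene that keeps pyruvate out of mitochondria (0.77), and *LOX*, which encodes an enzyme that cross-links collagen (0.67), followed. *P4HA1*, a prolyl hydroxylase gene of collagen synthesis, had 50.6, 55.6 and 59.5 TPM in pgEpiSCs-high, against 31.1, 41.1 and 34.0 TPM in pgEpiSCs-Low (0.63). *VEGFA*, the vessel growth factor gene, and *CA9* were not called, with 77.5, 77.7 and 72.1 TPM in pgEpiSCs-high, against 83.0, 85.4 and 80.8 TPM in pgEpiSCs-Low for *VEGFA*. *EGLN3*, a hydroxylase gene that oxygen-sensing cells induce, was lower (72.5, 79.7 and 72.5 TPM in pgEpiSCs-high, against 97.1, 93.3 and 96.1 TPM in pgEpiSCs-Low, log2 fold change -0.35). So was *HIF1A* (159, 152 and 162 TPM in pgEpiSCs-high, against 198, 204 and 209 TPM in pgEpiSCs-Low, log2 fold change -0.37). The labels state 1 oxygen level for both passages, but no oxygen measurement in the cultures is given in the sources used here. The part of oxygen was not tested, and the amount of HIF1A protein is not analysed here. With 1 library left out 9 to 12 targets were higher, the fewest without pgEpiSCs-high 2, and 1 lower.

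The promoters of 3 of these rising genes are printed because they hold the letters ACGTG, the core of the site that hypoxia-inducible factors bind. Each runs 5′ to 3′ on the strand of the gene, from 250 bases before to 50 after the RefSeq start (Sscrofa11.1), with the match in capitals, as CACGT where it lies on the other strand. The windows are chr2:49231472-49231771, chr14:140371902-140372201 and chr14:75919072-75919371, all on the minus strand.
ADM: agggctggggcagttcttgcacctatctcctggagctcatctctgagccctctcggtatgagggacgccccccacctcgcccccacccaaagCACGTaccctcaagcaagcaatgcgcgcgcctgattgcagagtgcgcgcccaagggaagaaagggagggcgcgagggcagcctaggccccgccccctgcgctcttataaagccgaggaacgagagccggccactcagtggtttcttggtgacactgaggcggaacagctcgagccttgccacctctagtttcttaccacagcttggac
BNIP3: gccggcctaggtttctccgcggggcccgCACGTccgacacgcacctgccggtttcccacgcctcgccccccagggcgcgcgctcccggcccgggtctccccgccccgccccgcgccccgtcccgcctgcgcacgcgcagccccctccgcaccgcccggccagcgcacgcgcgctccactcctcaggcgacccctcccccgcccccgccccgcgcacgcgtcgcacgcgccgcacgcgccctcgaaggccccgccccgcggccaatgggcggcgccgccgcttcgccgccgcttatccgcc
P4HA1: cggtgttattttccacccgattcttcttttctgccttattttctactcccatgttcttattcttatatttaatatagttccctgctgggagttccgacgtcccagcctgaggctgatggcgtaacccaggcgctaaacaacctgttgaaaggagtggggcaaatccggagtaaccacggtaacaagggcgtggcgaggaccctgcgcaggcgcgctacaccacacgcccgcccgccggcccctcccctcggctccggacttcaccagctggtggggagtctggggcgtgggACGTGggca
In all, 8 of the 17 tested low-oxygen targets, and 7 of the 12 called higher, had ACGTG on either strand of this window, against 24.9% of 11119 windows of the same length over all tested genes. A match is a description of these letters, not a site in use.

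Among glycolysis genes those called were nearly all higher. Of 30 tested members, 12 were higher and 1 lower in pgEpiSCs-high, with a median log2 fold change of 0.19, against 7.03% and 12.6% of all genes. The list shares *PDK1*, which was higher, and *HIF1A*, its lower member, with the low-oxygen list, so the 2 lists are not independent. *TPI1*, a glycolytic isomerase gene, had 1047, 1140.0 and 1123 TPM in pgEpiSCs-high, against 647, 669 and 700.4 TPM in pgEpiSCs-Low (log2 fold change 0.71, standard error 0.055, adjusted p = 7.88e-05). *LDHA*, which makes lactate, had 1004, 1170.0 and 1121 TPM in pgEpiSCs-high, against 674, 788 and 783 TPM in pgEpiSCs-Low (log2 fold change 0.55, standard error 0.079, adjusted p = 0.00184). *PGK1* had 624, 726 and 695 TPM in pgEpiSCs-high, against 480.2, 529 and 542 TPM in pgEpiSCs-Low (0.40). *ENO1*, the most abundant of them, had 4289, 4630.0 and 4424 TPM in pgEpiSCs-high, against 3255, 3577 and 3655 TPM in pgEpiSCs-Low (log2 fold change 0.35, standard error 0.063, adjusted p = 0.00601). The largest rise of the list was in *PFKFB3* (0.99), whose product raises glycolytic flux, and *ENO2* (0.60) and *HK2* (0.54) were higher too. The libraries of the passages did not overlap in any of these genes, as in 39.7% of all genes. Of the 64 tested nuclear subunits of the respiratory chain 2 were higher and 0 lower, with a median of 0.019.

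**Figure D3:**
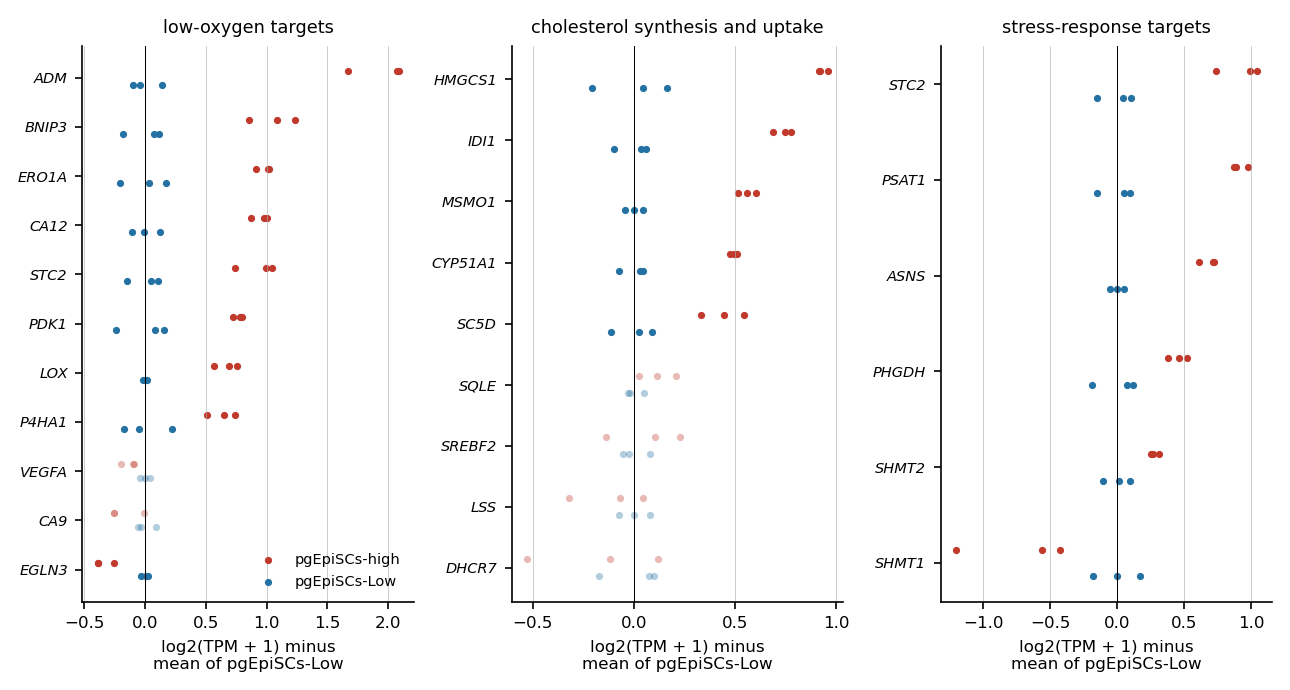
Level of the members named in the text of 3 lists in each library, as log2(TPM + 1) minus the mean of pgEpiSCs-Low, 1 point per library (pgEpiSCs-high red, pgEpiSCs-Low blue, members not called in pale colour). Red points of most called members lie to the right of the blue ones, furthest for *ADM*, and *EGLN3* and *SHMT1* are called in the other direction.

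Genes of cholesterol synthesis and uptake were higher or not called. The enzymes of this pathway are switched on together by the factor SREBF2 when cells lack sterols. Of 22 tested members, 10 were higher and 0 lower in pgEpiSCs-high (all genes 7.03% and 12.6%), with a median log2 fold change of 0.27. *HMGCS1*, which makes the precursor of mevalonate, had 551, 566 and 548 TPM in pgEpiSCs-high, against 252, 325 and 300.1 TPM in pgEpiSCs-Low (log2 fold change 0.93, standard error 0.085, adjusted p = 0.000167). *IDI1*, an isomerase gene of a later step, had 886, 906 and 850.4 TPM in pgEpiSCs-high, against 494, 552 and 542 TPM in pgEpiSCs-Low (log2 fold change 0.74, standard error 0.058, adjusted p = 8.17e-05). Next came *MSMO1* (0.56), *CYP51A1* (0.49) and *SC5D* (0.44), enzymes of the later sterol steps, each with the passages apart (39.7% of all genes). *SREBF2* (0.064) and the enzymes *SQLE* (0.12), *LSS* (-0.11) and *DHCR7* (-0.18) were not called. Of 12 tested fatty acid genes only the desaturase gene *SCD* was called (845, 912 and 862 TPM in pgEpiSCs-high, against 500.5, 602 and 584 TPM in pgEpiSCs-Low, log2 fold change 0.64, standard error 0.074, adjusted p = 0.000614). The promoter of *HMGCS1* (chr16:27957212-27957511, minus strand, cut as above) is printed because it holds TCACNCCAC, a sterol response element, in capitals.
HMGCS1: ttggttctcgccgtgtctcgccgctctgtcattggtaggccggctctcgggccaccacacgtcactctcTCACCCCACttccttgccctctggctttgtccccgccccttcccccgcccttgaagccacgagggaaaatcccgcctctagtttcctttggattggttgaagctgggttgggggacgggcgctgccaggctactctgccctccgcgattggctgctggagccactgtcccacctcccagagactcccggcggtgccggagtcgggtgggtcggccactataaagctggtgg
This motif was in 0.863% of all windows on either strand, in 3 of 20 windows of the list, and in 1 of the 9 of genes called higher, that of *HMGCS1*. The same window also holds CACGT, left in lower case, which does not overlap it.

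Of the genes that cells induce when amino acids run short, some were higher. In the integrated stress response the factor ATF4 switches on amino acid synthesis, transport and the loading of tRNAs. Of 18 tested target genes, 9 were higher and 1 lower in pgEpiSCs-high (all genes 7.03% and 12.6%). The median log2 fold change of these targets was 0.29. They are mostly enzymes, and *STC2* is also counted among the low-oxygen targets. *PSAT1*, an enzyme of serine synthesis, had 367, 372 and 394 TPM in pgEpiSCs-high, against 207, 180.4 and 214 TPM in pgEpiSCs-Low (log2 fold change 0.91, standard error 0.071, adjusted p = 7.84e-05). *ASNS*, asparagine synthetase, had 308, 307 and 285 TPM in pgEpiSCs-high, against 179.8, 187 and 193 TPM in pgEpiSCs-Low (log2 fold change 0.68, standard error 0.056, adjusted p = 9.1e-05). *PHGDH*, which starts serine synthesis, had 229.5, 221 and 208 TPM in pgEpiSCs-high, against 168, 140.1 and 173 TPM in pgEpiSCs-Low (log2 fold change 0.45, standard error 0.083, adjusted p = 0.00648). *SHMT1*, the cytosolic enzyme that turns serine to glycine, was lower (16.2 ± 4.54 TPM in pgEpiSCs-high and 27.0 ± 3.40 TPM in pgEpiSCs-Low, SD, n = 3 each, log2 fold change -0.73), while the mitochondrial form *SHMT2* was higher (0.28). Of 16 regulators 2 were higher and 2 lower, all 4 of them genes that stress induces. *DDIT4*, an inhibitor of mTOR signalling, had 318, 374 and 316 TPM in pgEpiSCs-high, against 139, 149.5 and 151 TPM in pgEpiSCs-Low (log2 fold change 1.19, standard error 0.074, adjusted p = 2.31e-05). The second, *CHAC1* (0.76), was higher too. The lower regulators were *PPP1R15A* (-0.71) and *ATF3* (-0.64), and *ATF4* (-0.070) was not called. The motif TGATGNAA, at which ATF4 binds, was in 2 of the 18 target windows and in 0 of the 9 of genes called higher, against 1.93% of all windows. The call of *SHMT1* was lost without the intensity trend and with pgEpiSCs-Low 1 or 3 left out (adjusted p 0.0637 to 0.105). That of *SHMT2* was lost without the intensity trend and with pgEpiSCs-high 2 or pgEpiSCs-Low 2 left out (adjusted p 0.0594 to 0.0643). That of *PPP1R15A* was lost with pgEpiSCs-Low 1 left out (adjusted p = 0.0537).

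The cytosolic aminoacyl-tRNA synthetases, which load tRNAs, rose or did not pass, by little. Over all genes 7.03% were higher and 12.6% lower. Of 19 tested members, 8 were higher and 0 lower in pgEpiSCs-high, with a median log2 fold change of 0.17. *EPRS1* had 322, 314 and 324 TPM in pgEpiSCs-high, against 219, 239.8 and 256 TPM in pgEpiSCs-Low (log2 fold change 0.43, standard error 0.064, adjusted p = 0.00229). *GARS1* had 496, 465 and 531 TPM in pgEpiSCs-high, against 369, 365 and 391.8 TPM in pgEpiSCs-Low (log2 fold change 0.40, standard error 0.061, adjusted p = 0.00258). Also higher was *TARS1* (0.37). Without the intensity trend of limma only 4 of the 8 calls held. Of the 16 mitochondrial synthetases 3 were higher and 0 lower. Of 26 tested amino acid transporter genes, 7 were higher and 3 lower in pgEpiSCs-high, with a median log2 fold change of 0.16, and without the intensity trend 4 higher and 4 lower. The glutamate transporter gene *SLC1A3* (1.08), the cystine transporter gene *SLC7A11* (0.84) and the neutral transporter gene *SLC1A4* (0.49) were higher, and *SLC38A3* (-0.83), *SLC43A2* (-0.53) and the taurine transporter gene *SLC6A6* (-0.42) lower. The call of *SLC38A3* was lost with pgEpiSCs-high 2 or 3 or pgEpiSCs-Low 2 left out (adjusted p 0.0516 to 0.0591).

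Antioxidant genes were higher more often than all genes, although the median of the list was close to 0. Of 38 tested members, 12 were higher and 2 lower in pgEpiSCs-high (all genes 7.03% and 12.6%), with a median log2 fold change of 0.032. *NQO1*, a quinone reductase gene, had 262, 242 and 216 TPM in pgEpiSCs-high, against 149, 129 and 136 TPM in pgEpiSCs-Low (log2 fold change 0.79, standard error 0.083, adjusted p = 0.000371). *SLC7A11*, which imports cystine for glutathione, had 13.3, 11.6 and 11.4 TPM in pgEpiSCs-high, against 5.73, 6.98 and 6.33 TPM in pgEpiSCs-Low (log2 fold change 0.84, standard error 0.12, adjusted p = 0.00175). It is also counted among the amino acid transporters. *PRDX6*, a peroxiredoxin gene, had 1050.0, 1118 and 1109 TPM in pgEpiSCs-high, against 790.2, 818 and 855 TPM in pgEpiSCs-Low (log2 fold change 0.41, standard error 0.053, adjusted p = 0.00105). These 3 genes, with *TXNIP* (0.77) and *SRXN1* (0.66), had no overlap between the passages, as had 39.7% of all genes. The 2 lower members were *GSTM3*, given above, and *GPX3*, a secreted glutathione peroxidase gene. *GPX3* had 16.5, 14.8 and 19.3 TPM in pgEpiSCs-high, against 36.6, 40.1 and 39.3 TPM in pgEpiSCs-Low (log2 fold change -1.16, standard error 0.10, adjusted p = 0.000135).

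**Figure D4:**
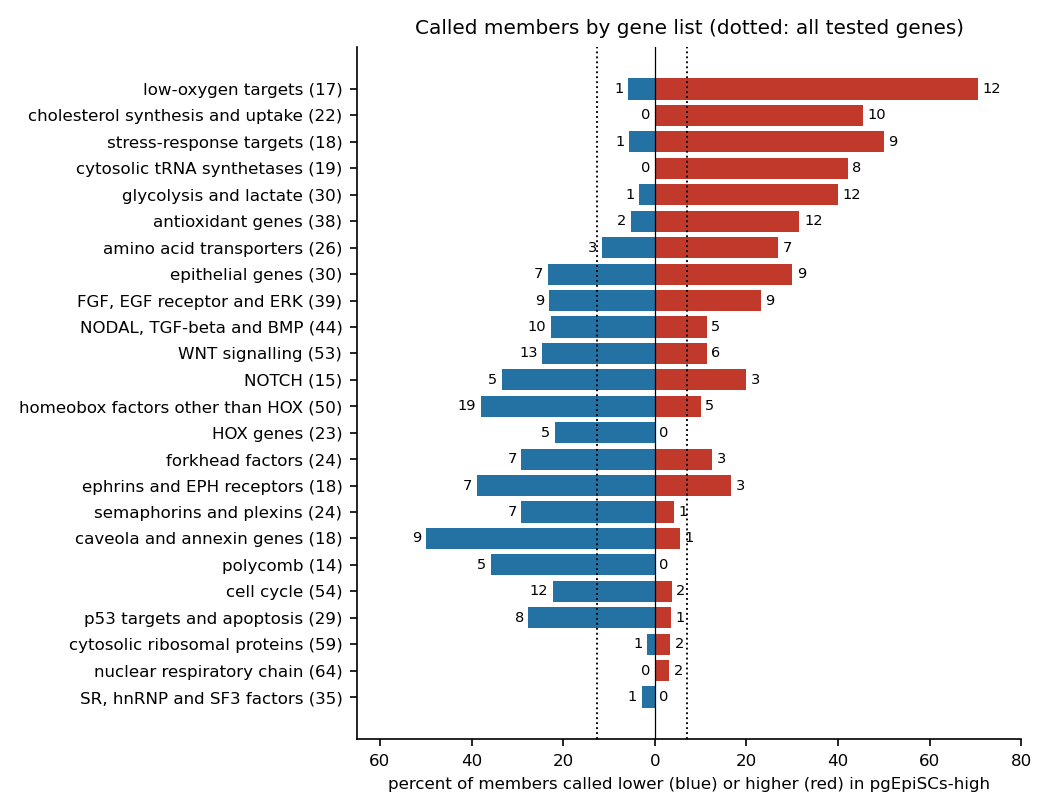
Share of the tested members of 24 gene lists called lower (blue, left) or higher (red, right) in pgEpiSCs-high, in percent, with the number called at the end of each bar and the number tested in brackets. The dotted lines mark all 13104 genes (12.6% lower, 7.03% higher); the bars of low-oxygen targets, cholesterol genes, stress-response targets and tRNA synthetases reach far past the right line, and those of caveola and annexin, homeobox and ephrin genes past the left one.

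Beside *CAV2* and *ANXA1* other genes of their families were lower to a lesser degree. Of 18 tested caveola and annexin genes, 1 was higher and 9 lower in pgEpiSCs-high (all genes 7.03% and 12.6%). Their median log2 fold change was -0.34. The 9 include *CAV2* and *ANXA1* themselves, and *CAV1*, whose call was lost in some alternatives. The list also holds the S100 genes *S100A10*, *S100A6* and *S100A11*. The annexin genes *ANXA2* (-0.72) and *ANXA4* (-0.61) were lower, the first with 63.2, 61.4 and 67.5 TPM in pgEpiSCs-high, against 104, 102 and 112 TPM in pgEpiSCs-Low, and so was *EHD2* (-0.97), which encodes a protein at the neck of caveolae.

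Epithelial genes changed in both directions. Of 30 tested members, 9 were higher and 7 lower in pgEpiSCs-high (all genes 7.03% and 12.6%), with a median log2 fold change of 0.034. *ESRP1*, a splicing regulator of epithelial cells, had 28.1, 27.5 and 27.8 TPM in pgEpiSCs-high, against 8.85, 7.73 and 7.61 TPM in pgEpiSCs-Low (log2 fold change 1.67, standard error 0.093, adjusted p = 1.26e-05). *SPINT1* and *SPINT2* encode related inhibitors of membrane proteases and moved apart. *SPINT1* had 23.7, 21.7 and 20.3 TPM in pgEpiSCs-high, against 11.4, 9.14 and 10.4 TPM in pgEpiSCs-Low (log2 fold change 1.02, standard error 0.11, adjusted p = 0.000425). *SPINT2* had 0, 0.544 and 0 TPM in pgEpiSCs-high, against 7.04, 5.59 and 5.69 TPM in pgEpiSCs-Low (log2 fold change -2.61, standard error 0.21, adjusted p = 8.46e-05). The keratin genes *KRT18* (114, 121 and 118 TPM in pgEpiSCs-high, against 57.0, 62.7 and 72.5 TPM in pgEpiSCs-Low, log2 fold change 0.87), *KRT14* (1.12) and *KRT8* (0.38) were higher, and the junction genes *TJP3* (-1.37), *DSC2* (-1.13) and *PKP2* (-0.64) lower. Of 11 mesenchymal genes 3 were higher, *VIM* (826, 820.5 and 778 TPM in pgEpiSCs-high, against 518, 481 and 515 TPM in pgEpiSCs-Low, log2 fold change 0.68, standard error 0.053, adjusted p = 8.09e-05), *SNAI1* (0.89) and *CDH2* (0.28), and 2 lower, *ZEB2* (-0.92) and *CDH11* (-0.58). The call of *SNAI1* was lost without the intensity trend and with pgEpiSCs-high 1 or 2 or pgEpiSCs-Low 2 or 3 left out (adjusted p 0.0567 to 0.108). That of *CDH2* was lost without the intensity trend and with pgEpiSCs-high 3 or pgEpiSCs-Low 1 or 2 left out (adjusted p 0.0559 to 0.0701).

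Guidance receptors and their ligands, which steer cells by contact and repulsion, changed in both directions, with more called lower than higher. All tested genes did so too, with 7.03% higher and 12.6% lower. Of 18 tested ephrin and EPH receptor genes, 3 were higher and 7 lower in pgEpiSCs-high, with a median log2 fold change of -0.32. *EPHA3* had 1.83, 3.22 and 1.95 TPM in pgEpiSCs-high, against 9.20, 10.6 and 10.0 TPM in pgEpiSCs-Low (log2 fold change -1.74, standard error 0.17, adjusted p = 0.000266). The ligand genes *EFNB1* (-1.28) and *EFNA2* (-1.12) were lower, while *EPHA10* (1.00) and *EPHA1* (0.69) were higher. Of 24 tested semaphorin, plexin and neuropilin genes, 1 was higher and 7 lower in pgEpiSCs-high, with a median log2 fold change of -0.26, *SEMA3B* (-1.42) being the largest change. Of 14 genes of the SLIT, ROBO and netrin group 1 was higher and 4 lower. *ROBO3*, a receptor of crossing axons, had 3.35, 3.29 and 2.28 TPM in pgEpiSCs-high, against 14.5, 16.8 and 15.3 TPM in pgEpiSCs-Low (log2 fold change -2.07, standard error 0.14, adjusted p = 4.37e-05). Of 28 tested gap junction, integrin and laminin genes, 5 were higher and 6 lower in pgEpiSCs-high, with a median log2 fold change of -0.020, an order that turned to 8 higher and 5 lower after median-of-ratios scaling. *ITGB8*, an integrin gene whose product activates TGF-beta, had 1.32, 1.032 and 1.02 TPM in pgEpiSCs-high, against 7.47, 8.22 and 6.32 TPM in pgEpiSCs-Low (log2 fold change -1.97, standard error 0.15, adjusted p = 7.61e-05). *LAMA4*, a laminin gene, had 4.59, 6.25 and 5.73 TPM in pgEpiSCs-high, against 1.65, 1.71 and 1.69 TPM in pgEpiSCs-Low (log2 fold change 1.27, standard error 0.15, adjusted p = 0.000666). The paired basement membrane collagen genes *COL4A1* (-0.75) and *COL4A2* (-1.01) were both lower. Of 46 tested genes of potassium channels and their auxiliary proteins 4 were higher, among them *KCNQ3* (1.34), and 1 lower (5 and 5 with all 14 libraries in 1 model). The GABA receptor subunit genes split, with *GABRA2* at 20.7, 24.6 and 21.9 TPM in pgEpiSCs-high, against 4.44, 8.43 and 6.59 TPM in pgEpiSCs-Low (1.68), *GABRA5* (1.30) higher and *GABRA3* (-1.68) lower.

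Homeobox and HOX genes were lower more often than higher, as were FOX genes except after the GC correction (5 higher and 5 lower). The shares over all genes were 7.03% higher and 12.6% lower. Of 50 tested homeobox genes outside the HOX clusters, 5 were higher and 19 lower in pgEpiSCs-high, with a median log2 fold change of -0.21. Beside *LHX5*, *GSC* and *OTX2* the falls included *ZFHX3* (-1.47), *IRX2* (-1.43) and *TLX2* (-1.39), and the rises *LHX1* (1.02), *HHEX* (0.94) and *PBX3* (0.72). Of 23 tested HOX genes, 0 were higher and 5 lower in pgEpiSCs-high, with a median log2 fold change of -0.36. Of 24 tested FOX genes, 3 were higher and 7 lower in pgEpiSCs-high, with a median log2 fold change of -0.16. Beside *FOXB1*, *FOXB2* and *FOXA2* the metabolic regulator *FOXO1* was lower (32.1, 32.3 and 36.6 TPM in pgEpiSCs-high, against 60.4, 64.0 and 63.5 TPM in pgEpiSCs-Low, log2 fold change -0.88, standard error 0.074, adjusted p = 0.000112). Higher were *FOXI3* (1.41) and *FOXA1* (0.85). Of 7 tested SOX genes 0 were called in either direction (limma), and 1 had an unadjusted p below 0.05. In the NOTCH pathway, in which neighbouring cells signal by contact, of 15 tested members, 3 were higher and 5 lower in pgEpiSCs-high, with a median log2 fold change of -0.15, against 4 and 4 after quantile normalization. The NOTCH target *HES1* had 8.41, 10.5 and 10.5 TPM in pgEpiSCs-high, against 20.6, 27.2 and 26.5 TPM in pgEpiSCs-Low (log2 fold change -1.25, standard error 0.13, adjusted p = 0.000401). The receptor gene *NOTCH3* (-0.95) was lower. The ligand gene *DLL1* (11.4, 12.2 and 10.6 TPM in pgEpiSCs-high, against 6.14, 5.65 and 5.58 TPM in pgEpiSCs-Low, log2 fold change 0.87) and *NOTCH4* (1.00) were higher.

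Among chromatin genes falls outnumbered rises, as over all genes (7.03% higher and 12.6% lower), where the surplus was tied to the scaling. Counts of the lists in this paragraph after other scalings are not given here. Of 32 tested members, 1 was higher and 9 lower in pgEpiSCs-high, with a median log2 fold change of -0.14. Polycomb proteins keep developmental genes silent, and of 14 tested polycomb genes 0 were higher and 5 lower. *EZH2*, the methyltransferase of the complex, had 48.6, 48.3 and 51.1 TPM in pgEpiSCs-high, against 67.2, 73.8 and 79.1 TPM in pgEpiSCs-Low (log2 fold change -0.56, standard error 0.074, adjusted p = 0.00124). Lower too was *BMI1* (-0.90). *UHRF1*, which brings the maintenance methyltransferase to replicated DNA, had 210.5, 200.0 and 197 TPM in pgEpiSCs-high, against 291, 315 and 325 TPM in pgEpiSCs-Low (log2 fold change -0.61, standard error 0.059, adjusted p = 0.000221). The de novo methyltransferase genes split. *DNMT3B* had 536, 537 and 499 TPM in pgEpiSCs-high, against 359.6, 355 and 383 TPM in pgEpiSCs-Low (log2 fold change 0.52, standard error 0.055, adjusted p = 0.000399). *DNMT3A* had 34.2, 29.7 and 31.5 TPM in pgEpiSCs-high, against 43.2, 40.6 and 43.6 TPM in pgEpiSCs-Low (log2 fold change -0.41, standard error 0.077, adjusted p = 0.00718). Of 21 tested imprinted genes, 2 were higher and 7 lower in pgEpiSCs-high, with a median log2 fold change of -0.23. *PEG3*, expressed from the paternal copy in mammals, had 11.5, 10.4 and 8.72 TPM in pgEpiSCs-high, against 20.4, 23.2 and 20.8 TPM in pgEpiSCs-Low (log2 fold change -1.01, standard error 0.12, adjusted p = 0.000603). *PEG10* (96.0, 97.4 and 91.7 TPM in pgEpiSCs-high, against 51.4, 52.6 and 55.8 TPM in pgEpiSCs-Low, log2 fold change 0.82) and *MEST* (1.12), paternally expressed too, were higher. DNA methylation was not measured in these libraries.

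Most genes of the cell cycle were not called, as were most of all genes. Of 54 tested members, 2 were higher and 12 lower in pgEpiSCs-high, with a median log2 fold change of -0.15. This is a smaller share higher and a larger share lower than over all genes (7.03% and 12.6%). Beside *CCND2*, which rose, *CCND1* (-0.35) and *CCNE1*, the gene of cyclin E1 (23.9, 28.9 and 27.1 TPM in pgEpiSCs-high, against 36.2, 35.02 and 41.3 TPM in pgEpiSCs-Low, log2 fold change -0.48, standard error 0.10, adjusted p = 0.00993), were lower. *CDKN1C*, an imprinted inhibitor of the cycle, had 3.61, 2.32 and 0.664 TPM in pgEpiSCs-high, against 7.42, 8.36 and 4.81 TPM in pgEpiSCs-Low (-1.39). Of 29 tested p53 target and apoptosis genes, 1 was higher and 8 lower in pgEpiSCs-high, with a median log2 fold change of -0.079. *PMAIP1*, the gene of the death protein NOXA, was the only rise, with 46.4, 39.3 and 48.7 TPM in pgEpiSCs-high, against 19.2, 14.6 and 17.4 TPM in pgEpiSCs-Low (log2 fold change 1.34, standard error 0.12, adjusted p = 0.00013). The genes *TP53INP1* (-0.66), *BAD* (-0.65) and *BMF* (-0.56) were among the falls. The call of *CCND1* was lost with pgEpiSCs-high 2 or 3 or pgEpiSCs-Low 2 or 3 left out (adjusted p 0.0501 to 0.0806). That of *CDKN1C* was lost without the intensity trend and with pgEpiSCs-high 2 or pgEpiSCs-Low 1 or 2 left out (adjusted p 0.0519 to 0.0883). That of *BMF* was lost with pgEpiSCs-high 2 or pgEpiSCs-Low 3 left out (adjusted p 0.0506 to 0.0511).

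Large housekeeping families stayed near or below the background of all genes. Of 59 tested cytosolic ribosomal protein genes 2 were higher and 1 lower, of 68 mitochondrial ones 7 and 1 (4 and 4 with the replicate number as a block), of 35 proteasome genes 3 and 0, and of 35 SR, hnRNP and SF3 splicing factor genes 0 and 1. Of 19 genes of the interferon response and antigen presentation 0 were higher and 0 lower (limma), and 3 had an unadjusted p below 0.05.

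By position, chromosome 10 stood above the other chromosomes. Of its 245 tested genes 52 were higher (21.2%) and 9 lower (3.67%) in pgEpiSCs-high, with a median log2 fold change of 0.14, while the medians of the other nuclear chromosomes ran from -0.14 to 0.0054. After the GC correction its median was 0.17, with 80 genes higher and 7 lower, and those of the others ran from -0.048 to 0.012. The median deviation of its genes from their mean over the 6 libraries was 0.095, 0.084 and 0.115 in pgEpiSCs-high 1, 2 and 3 and -0.11, -0.090 and -0.081 in pgEpiSCs-Low 1, 2 and 3, so that all libraries of a passage lay on the same side. No test was made of chromosomes, whose genes are not independent.

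On a stretch of chromosome 5 most genes lay above 0. Of 10171 running windows of 50 neighbouring genes it had the highest median log2 fold change, 0.28, from *BORCS5* to *PLEKHG6* (chromosome 5, 59969806-64350680, Sscrofa11.1). It was picked for that value, so the counts describe it and test nothing. Of its 50 genes 24 were called higher and 2 lower, and 41 lay above 0, against 49 higher and 91 lower of the other 548 tested genes of the chromosome, whose median was -0.065. The window is rich in GC (median 58.1%, the rest of the chromosome 51.9%), and after the GC correction its median was 0.44, with 30 genes higher and 0 lower. Its median deviation was 0.19, 0.26 and 0.20 in the pgEpiSCs-high libraries and -0.20, -0.25 and -0.16 in the pgEpiSCs-Low libraries. It holds *TPI1*, *ENO2* and *GDF3*, named above with their pathways. Beside them stand genes of other functions. *NECAP1*, of clathrin transport, had 18.1, 18.4 and 17.2 TPM in pgEpiSCs-high, against 8.01, 10.3 and 9.94 TPM in pgEpiSCs-Low (log2 fold change 0.87, standard error 0.11, adjusted p = 0.00111). *LPCAT3*, of phospholipid remodelling, was higher by 0.68 on the log2 scale, with 124, 122 and 123 TPM in pgEpiSCs-high, against 80.9, 74.9 and 73.5 TPM in pgEpiSCs-Low. *NCAPD2*, of condensin, had 132, 135 and 136 TPM in pgEpiSCs-high, against 88.6, 89.3 and 95.2 TPM in pgEpiSCs-Low (log2 fold change 0.56, standard error 0.055, adjusted p = 0.000267). In all 3 genes the passages were apart, as in 39.7% of all genes, and the deubiquitinase gene *USP5* (0.49) was higher too. The receptor gene *LTBR* (1.11) and the sodium channel gene *SCNN1A* (1.10), at the far end, had the largest rises after *GDF3*. Windows on other chromosomes came near, with medians of 0.23 on X, 0.22 on chromosome 3 and 0.21 on chromosome 10. After the GC correction the window on chromosome 3 had a median of 0.34, with 26 genes higher and 2 lower.

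**Figure D5:**
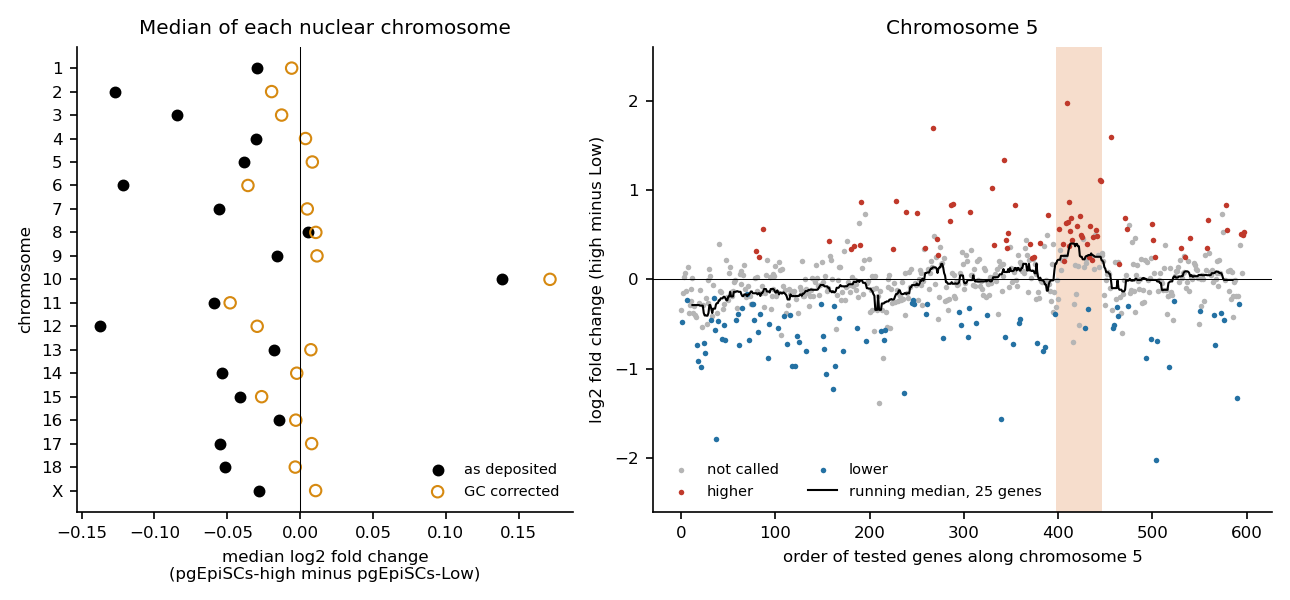
Left, median log2 fold change (pgEpiSCs-high minus pgEpiSCs-Low) of the tested genes of each nuclear chromosome, on deposited TPM (filled) and after the GC correction (open); chromosome 10 lies at 0.14 and 0.17 and the others at or below 0.012. Right, log2 fold change of the 598 tested genes of chromosome 5 in their order, with genes called higher in red and lower in blue, a running median over 25 genes, and the window of 50 genes shaded, where the median is 0.28.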

How the data were processed

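The RNA of 14 libraries was aligned and counted by the authors with HISAT2 and featureCounts on Sscrofa11.1 (annotation release not given in the sources used here). The deposited table holds TPM per gene, with genes by symbol or, for 2209, by Ensembl identifier, of which 608 were named from an identifier table. TPM keeps no counts, so depth is unknown and the study's count test was not used.

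Genes with TPM above 0.5 in at least 2 libraries of either passage were tested with limma 3.58.1 in R 4.3.3 on log2(TPM + 1) with an intensity trend, over the 6 pgEpiSCs libraries. A gene was called at a two-sided adjusted p below 0.05 (Benjamini-Hochberg over all tested genes). The fit was tested on simulated data. The members, lists and alternatives were chosen with earlier results of these data known, so lists are described by counts and medians, with no test over a list.

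Genes named were the 20 largest rises and 20 largest falls with a symbol and no overlap between the passages, up to 6 called members per direction of each list described, members of the pluripotency, NODAL, WNT and FGF lists and of the marker lists, and genes listed at 0 in one passage and above 5 TPM in every library of the other. Genes named for their position were chosen by place, and the window of 50 genes on chromosome 5 by its value. Some genes that this rule takes are not reported here.

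Positions, GC content and promoter sequences are from RefSeq (Sscrofa11.1), with a value for 84.9% of tested genes. The GC correction removed a lowess curve (span 0.3) per library and was chosen after seeing the data, as were its combination with the block and the refit of genes with a GC value. The other alternatives varied the pseudocount, filter, scaling, libraries, block and trend.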

Additional observations from a re-analysis of the deposited data

How the results depend on the processing

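The deposited TPM gave 921 genes higher and 1645 lower in pgEpiSCs-high. After the GC correction 1387 genes were higher and 1231 lower, of 11132. On the deposited TPM, a further demand of an absolute log2 fold change above 1 left 97 higher and 198 lower. With 1 library left out, 534 to 792 genes were higher and 915 to 1777 lower. The fewest higher genes came without pgEpiSCs-high 2 and the fewest lower genes without pgEpiSCs-Low 3 (the fit then has fewer samples). Of 200 called genes named, 175 kept the call in every alternative, of 20, that tested them. A gene without a GC value or below a stricter filter was not tested in some. In 1 or more alternatives that kept all libraries 12 lost the call, 25 lost it when 1 library was left out, and 0 changed sign. The 40 largest rises and falls lost no call in any alternative that tested them. They were picked from the same libraries for large changes without overlap, so this is no independent check.

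Some genes that were not called changed sign. After the GC correction, with or without the block, the log2 fold change was 0.0044 for *ATF4*, 0.083 for *DHCR7*, 0.050 for *ERBB2*, 0.24 for *LEFTY2*, 0.24 for *MTG1* and 0.081 for *SOX2*. It was 0.056 for *MTG1*, 0.020 for *SMAD2* and 0.013 for *SMAD4* after median-of-ratios scaling, and 0.077, 0.058 and 0.022 for these genes after quantile normalization. *MTG1* stood at 0.025 without the mitochondrial genes and at 0.035 without the 100 most abundant genes. The cause was not tested. Of these, *MTG1* was called higher after the GC correction (adjusted p 0.0158, with the block 0.017) and *LEFTY2* with the correction and the block (adjusted p 0.0359). Other genes gained a call with no change of sign. *SREBF2* (0.28) and *LIN28A* (0.31) were called after the GC correction, with or without the block, *LIN28A* (0.23) and *NANOG* (0.22) after median-of-ratios scaling, and *NANOG* also without the mitochondrial genes (0.19), without the 100 most abundant genes (0.20) and without pgEpiSCs-high 1 (0.21). *DCN* (0.73) was called with all 14 libraries in 1 model, and *LIFR* (0.41) and *NKD1* (-0.42) without the intensity trend. With 1 library left out the values ran from -0.060 to 0.097 for *MTG1*, from -0.13 to 0.014 for *SMAD2* and from -0.017 to 0.16 for *SREBF2*.

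The libraries of both passages carry the numbers 1 to 3, but nothing says that a number marks a shared day or culture. Deviations from the group means of same-numbered libraries correlated at 0.094, -0.014 and 0.094, and pgEpiSCs-high 2 correlated best with pgEpiSCs-Low 1. With the replicate number as a block 813 genes were higher and 1564 lower, and with the block and the GC correction 1341 and 1221.

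TPM gives no depth, so values near 0 carry no counting error here. GC content was corrected only for genes with a known exon sequence, and the passages cannot be told apart from other differences between the cultures.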

Other observations

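The muscle cultures of the series, which entered only the model of all 14 libraries, also gave values for genes that were nearly silent in pgEpiSCs-high. They are muscle progenitors made from pgEpiSCs (pgEpiSCs-MPCs, 2 libraries) and the muscle cells made from them (pgEpiSCs-MCs, 3 libraries). The others, labelled MPC-Dif (3 libraries), are cultures differentiated from isolated pig muscle stem cells. The passage of the pgEpiSCs that were differentiated is not given in the sources used here. *CAV2* had 67.5, 69.2 and 67.7 TPM in MPC-Dif, 10.2, 11.5 and 8.76 TPM in pgEpiSCs-MCs, and 0 and 0.239 TPM in pgEpiSCs-MPCs. *ANXA1* had 667 to 695 TPM in MPC-Dif, 581 to 617 TPM in pgEpiSCs-MCs and 17.3 and 23.3 TPM in pgEpiSCs-MPCs. *GSTM3*, *CYP2E1* and *EXO5*, listed at 0 in pgEpiSCs-high, were above 0 in all 8 muscle libraries, with *EXO5* at 10.0 and 10.2 TPM in pgEpiSCs-MPCs. *VAT1L* had 64.4 and 73.8 TPM in pgEpiSCs-MPCs and 35.5 to 36.9 TPM in pgEpiSCs-MCs, and was at 0 in MPC-Dif.

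Of the genes that rose at high passage, *GDF3* was at 0 in all 8 muscle libraries and *ZFP42* at 0 in MPC-Dif and pgEpiSCs-MCs. *GIMAP8* and *ATF7IP2* stayed at or below 0.513 TPM in the 8 libraries. *EGFR* had 75.7 to 92.6 TPM in MPC-Dif, 38.9 to 41.8 TPM in pgEpiSCs-MCs and 18.9 and 21.8 TPM in pgEpiSCs-MPCs.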
